A study of Mus musculus with 75 samples.

Results

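Lung RNA of 12 BLEO-IPF mice killed 14 days after bleomycin was described along the level of Sftpc, the gene of surfactant protein C and the defining marker of alveolar type 2 (AT2) cells. The 12 mice, of 75 in the series, were ranked by the counts-per-million (CPM) value of Sftpc among all counts. The 6 mice chosen by the lowest values formed the low-Sftpc set and the 6 mice with the highest values the high-Sftpc set. The study followed male C57BL/6JRj mice of 12 to 14 weeks after a single intratracheal dose of bleomycin (1.5 mg/kg), a model of idiopathic pulmonary fibrosis (IPF), and randomised only mice with mild to moderate weight loss. Besides the 12 mice of day 14, it held 10 mice on day 7, 12 each on days 21, 28 and 35, 7 on day 42, and 10 CTRL mice of the same strain and sex. The series describes the CTRL mice as given saline, whereas their treatment note reads as untreated. Whole tissue of the inferior lobe was sequenced from 1 library per mouse, and no batch is named in the labels or the methods.

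AT2 cells are the cuboidal cells of the alveolus that make, store in lamellar bodies and secrete surfactant, the lipid and protein film that keeps alveoli from collapsing. They are also the progenitors that renew themselves and give rise to the flat alveolar type 1 (AT1) cells after injury, in part through a transitional state marked by keratins and cell cycle inhibitors. Bleomycin breaks DNA and injures the alveolar epithelium, and fibroblasts then deposit collagen. Fewer cells of a type and less RNA per cell cannot be told apart in whole lung tissue.

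Surfactant genes are under the transcription factor NKX2-1, whose known binding sites share the core letters CTCAAG, and the genome sequence before 2 surfactant genes is shown because both genes followed the order of Sftpc. The RefSeq sequences are the 250 bases before the start of Sftpa1 (GRCm38.p6, chr14:41131538-41131787, plus strand) and of Sftpb (chr6:72304360-72304609, plus strand). Sftpb starts at the same base in the Ensembl annotation behind the counts, whereas the Ensembl start of Sftpa1 lies within the last bases of the window shown. Capitals mark CTCAAG on the strand shown.
Sftpa1: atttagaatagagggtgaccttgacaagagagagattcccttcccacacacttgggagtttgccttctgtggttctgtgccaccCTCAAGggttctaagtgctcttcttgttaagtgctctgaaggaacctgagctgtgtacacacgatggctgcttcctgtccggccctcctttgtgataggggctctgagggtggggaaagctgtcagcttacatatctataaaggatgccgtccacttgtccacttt
Sftpb: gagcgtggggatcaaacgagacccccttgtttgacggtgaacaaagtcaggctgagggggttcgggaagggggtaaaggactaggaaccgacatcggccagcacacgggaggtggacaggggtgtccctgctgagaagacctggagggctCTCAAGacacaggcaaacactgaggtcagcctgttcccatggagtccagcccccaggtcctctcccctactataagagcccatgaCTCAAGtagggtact
Promoter entries were matched for 21 of the 28 genes of the AT2 list, with Sftpc not among them. In windows of 300 bases (250 before the start and 50 after it), CTCAAG on either strand was found in 5 of their 25 promoters (20%), beside 5224 of all 32851 promoters (15.9%). A match of these letters is a description of the sequence and not a measured binding site.

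Sftpc (chr14:70520949-70524081, GRCm38) spanned a 4.22-fold range on day 14, the widest among the 7 groups. In the low-Sftpc set it lay at 3195, 3982, 4102, 5395, 5450 and 5508 CPM of total counts (replicates 1, 3, 8, 7, 4 and 2). In the high-Sftpc set it lay at 7872, 8863, 9361, 9372, 12550 and 13493 CPM (replicates 9, 10, 12, 6, 5 and 11). The sets were thus divided between 5508 and 7872 CPM, and these values are a description of the choice, with no test. The CTRL mice lay between 12035 and 15278 CPM, so that all low-Sftpc mice were below that range while the 2 highest mice of day 14 were inside it. Day 14 as a whole averaged 7429 ± 3376 CPM (SD, n = 12) against 13841 ± 1040 CPM in CTRL (SD, n = 10), a log2 fold change of -0.88 ± 0.18 (SE) with an adjusted p of 2.75e-05 in edgeR's quasi-likelihood test. Mice of the other days showed how far this gene moved outside the ranked group, with medians of 11697, 11677, 13390, 14791 and 16035 CPM on days 7, 21, 28, 35 and 42.

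**Figure D1:**
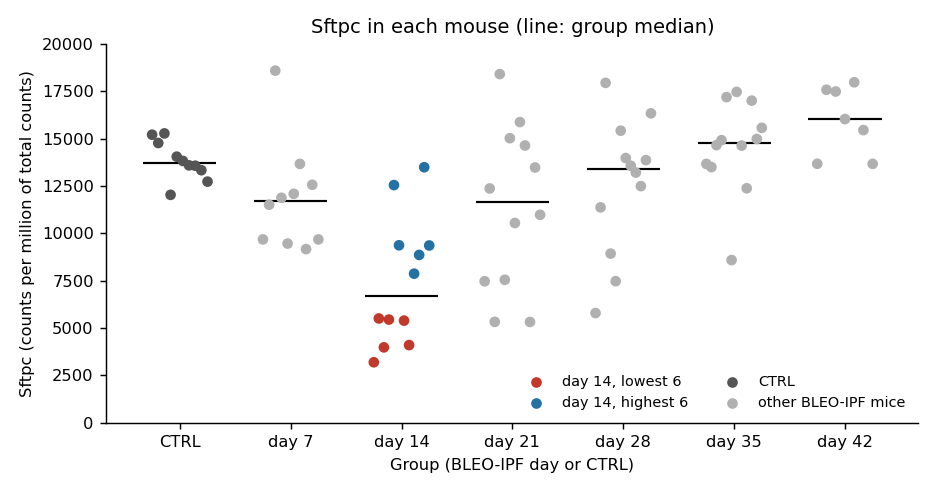
Sftpc in CPM of total counts (vertical axis) for each of the 75 mice by group (horizontal axis), with each point a mouse, each line a group median and the low-Sftpc and high-Sftpc mice of day 14 in separate colours. Day 14 has the lowest median, 6690 CPM, and the 2 sets are separated by the gap from 5508 to 7872 CPM.

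Depth did not separate the sets. Totals of the 12 libraries ranged from 9859808 to 13419601 counts, and those of the series from 9240291 to 14665247. Mitochondrial counts made 0.865 to 1.56% of the total in the low-Sftpc mice and 1.45 to 1.73% in the high-Sftpc mice, and all 7 mitochondrial genes tested had a lower mean in the low-Sftpc set. The other genes of the 13 listed (mt-Nd3, mt-Nd4l, mt-Co2, mt-Co3, mt-Atp6 and mt-Atp8) had 0 counts in all 12 mice, so the share leaves them out. The part of this share in the results was not tested. Markers of other tissues that a lobe could carry were low in both sets: thymus genes summed to at most 22.5 CPM, skeletal muscle genes to at most 15 CPM and brown fat genes to at most 13.2 CPM. Cardiac muscle genes ranged from 79.2 to 427 CPM in the low-Sftpc mice and from 49.4 to 459 CPM in the high-Sftpc mice, overlapping widely. Abundant members of these lists were Themis, Ccr9 and Dntt (thymus), Ckm, Mylpf, Tnnt3 and Actn3 (skeletal muscle), and Ppargc1a, Cox7a1, Cidea and Adipoq (brown fat). Others were Myh6, Tnnt2, Actc1 and Myl4 (cardiac muscle), and mt-Co1, mt-Cytb, mt-Nd1 and mt-Nd5 (mitochondria). The sets overlapped for all of them. The counts of Ccr9 are uncertain, since genes on the opposite strand at its locus held 2355% of its own count.

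Across the transcriptome, 580 of 16220 genes other than Sftpc (3.58%) were lower in all 6 low-Sftpc mice than in any high-Sftpc mouse. A further 558 genes (3.44%) were higher in all 6 low-Sftpc mice. Without replicate 7 of the low-Sftpc set these counts were 930 and 968. The shares of 3.58% and 3.44% apply to every list below, and 1 such gene in a list is not read as a result. The difference in mean log2 CPM, low-Sftpc minus high-Sftpc, was at least 1 in absolute size for 648 genes, and its median over all genes was 0.00. Because the sets were selected on a value measured in the same libraries, these differences carry no test. The relation of each gene to Sftpc was tested instead in the 53 BLEO-IPF mice of days 7, 21, 28, 35 and 42, which the ranking did not use, as a slope of log2 CPM on the log2 CPM of Sftpc within day. In those mice 3203 of 16220 genes had a positive slope (19.7%) and 3443 a negative one (21.2%) at an adjusted p under 0.05 by edgeR, and without day 21 these were 2088 and 2292. Of the 580 genes that lay lower in the low-Sftpc mice, 472 had a positive slope on the other days (81.4% of the 580, and 14.7% of all positive slopes) and 0 a negative one. Of the 558 genes that lay higher, 454 had a negative slope (81.4% of the 558, and 13.2% of all negative slopes) and 1 a positive one.

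The other surfactant proteins followed the order of Sftpc closely. Sftpa1, the gene of the lectin surfactant protein A (chr14:41131782-41136452), lay at 717, 787, 693, 1275, 951 and 1001 CPM in the low-Sftpc mice, in the order of their Sftpc, and at 1747, 1741, 1838, 2392, 3460 and 3348 CPM in the high-Sftpc mice. The sets did not overlap, and the 2 mice with the most Sftpc also had the most Sftpa1. Its slope on the other days was 1.12 ± 0.07 log2 units per log2 unit of Sftpc (SE, adjusted p = 8.29e-19), and its log2 fold change on day 14 against CTRL was -1.19 ± 0.22 (adjusted p = 3.15e-06). Sftpb, which encodes the surfactant protein that spreads the lipid film (chr6:72304610-72314371), lay at 1058, 1346, 1489, 1708, 2266 and 1430 CPM in the low-Sftpc mice and at 2280, 2534, 2457, 2662, 3221 and 3324 CPM in the high-Sftpc mice. Replicate 4 of the low-Sftpc set came closest to the high-Sftpc mice. The slope of Sftpb was 0.69 ± 0.05 (adjusted p = 1.36e-15).

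Sftpd, the gene of the second surfactant lectin (chr14:41172214-41185149), differed from its relatives in where the sets lay against CTRL. It measured 410, 547, 539, 613, 673 and 566 CPM in the low-Sftpc mice and 862, 886, 943, 898, 1170 and 1365 CPM in the high-Sftpc mice, against 668 to 929 CPM in CTRL. Of the low-Sftpc mice 5 lay below the CTRL range, and of the high-Sftpc mice 3 lay above it. Day 14 as a whole had a log2 fold change of 0.01 ± 0.15 against CTRL (adjusted p = 0.964). The slope on the other days was 0.74 ± 0.07 (adjusted p = 5.7e-13), so a split by Sftpc also orders Sftpd.

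**Figure D2:**
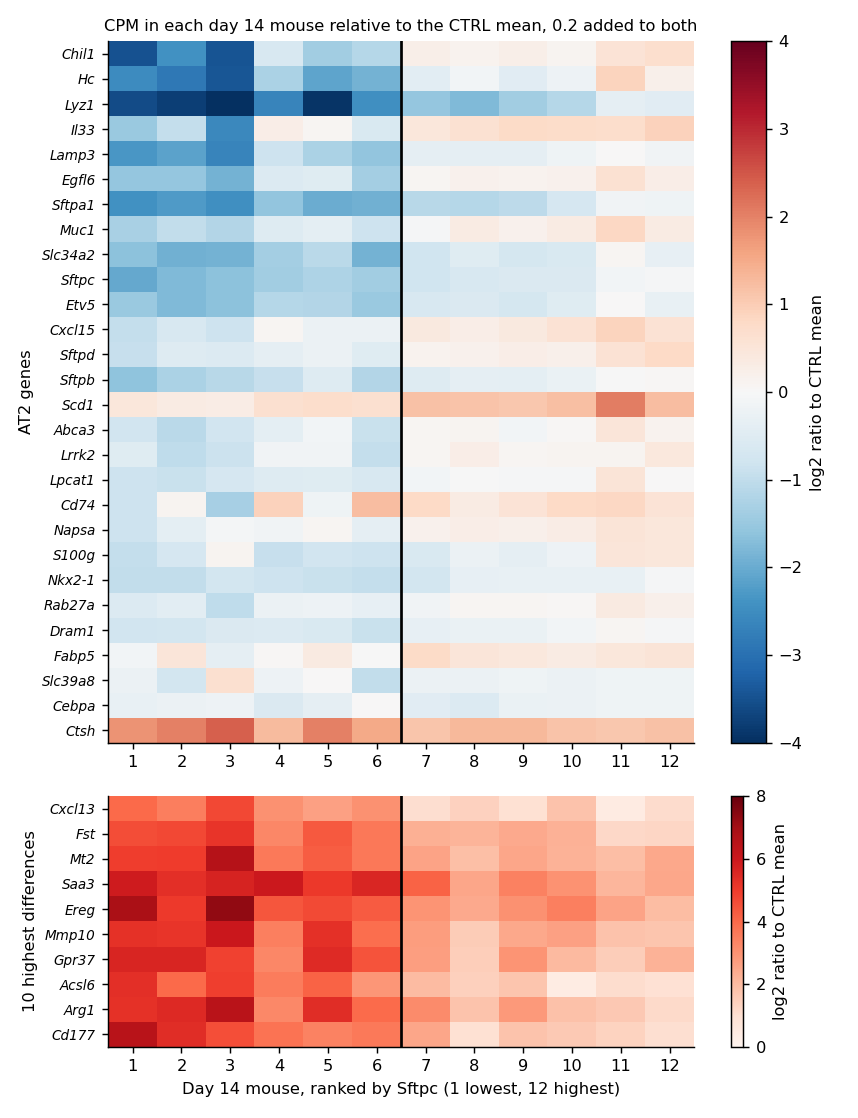
Log2 ratio of each day 14 mouse to the CTRL mean, with 0.2 CPM added, for the 28 genes of the AT2 list (upper panel, blue below and red above CTRL, scale from -4 to 4) and for the 10 genes with the highest differences (lower panel, scale from 0 to 8), with columns ordered by Sftpc from the lowest mouse to the highest. Many AT2 genes are bluest in the 3 mice with the least Sftpc, and most genes of the lower panel are deepest red there.

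AT2 genes beyond the surfactant proteins lay lower in the low-Sftpc set with few exceptions. Of the 27 AT2 genes tested besides Sftpc, 21 lay lower without overlap and 0 higher, and the median difference was -0.80 log2 units. On the other days 24 of the 27 had a positive slope and 1 a negative one, with a median slope of 0.56, and between 21 and 25 were positive under every alternative fit. The fit with the mean of these same 27 genes in place of Sftpc gave 25, a count that is in part built in. Their summed level was 8795 to 13616 CPM in the low-Sftpc mice, 17505 to 26412 CPM in the high-Sftpc mice and 16983 to 21322 CPM in CTRL. All 6 low-Sftpc mice were below the CTRL range for 12 of the 27 genes, and all 6 high-Sftpc mice were below it for 0.

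The largest differences within the list were those of Chil1, Hc and Lyz1. Chil1, a chitinase-like protein, lay at 66.5, 139, 67.3, 476, 283 and 339 CPM in the low-Sftpc mice and at 806 to 1196 CPM in the high-Sftpc mice, a difference of -2.42 log2 units. Hc, the gene of complement component C5, lay at 92.7, 73.5, 48.9, 221, 123 and 143 CPM and at 389 to 990 CPM respectively (-2.33). Lyz1, a lysozyme of AT2 cells, lay at 29.2, 25.6, 17.7, 56.2, 23.1 and 63.9 CPM and at 101 to 269 CPM (-2.32). In each of the 3 genes replicates 1, 3 and 8 were among the 4 lowest mice. On the other days their slopes were 0.97 ± 0.12 (Chil1), 1.05 ± 0.13 (Hc) and 1.44 ± 0.19 (Lyz1), with adjusted p of 1.39e-08, 3.54e-09 and 1.65e-08. Against CTRL, Lyz1 fell on day 14 by 1.74 log2 units (adjusted p = 1.69e-05), whereas Chil1 had a log2 fold change of -0.34 ± 0.28 (adjusted p = 0.288), with all 6 low-Sftpc mice below its CTRL range of 622 to 873 CPM and 4 of the 6 high-Sftpc mice above it. Il33, an alarmin cytokine that AT2 cells store in the nucleus, lay at 37.7, 54.2, 17.4, 126, 112 and 68.6 CPM in the low-Sftpc mice and above the CTRL range of 94.2 to 128 CPM in all 6 high-Sftpc mice (145 to 198 CPM). Its slope was 0.54 ± 0.14 (adjusted p = 0.00174), but without day 21 the adjusted p was 0.222.

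Lamp3, Abca3, Slc34a2, Etv5 and Nkx2-1 differed less, and their sets did not overlap. Lamp3, a membrane protein of lamellar bodies, lay at 101 to 350 CPM in the low-Sftpc mice and at 489 to 634 CPM in the high-Sftpc mice, with a slope of 0.83 ± 0.08 (adjusted p = 2.74e-12). Abca3, the transporter that loads surfactant lipid into those bodies, lay at 232 to 457 and 457 to 695 CPM, with the sets just short of touching, a difference of -0.80 with a slope of 0.38 ± 0.07 (adjusted p = 1.49e-05). Slc34a2, the phosphate transporter of AT2 cells, lay at 533 to 961 and 1168 to 2127 CPM. The transcription factors stood in the same order: Etv5, which maintains AT2 identity, had a difference of -1.01 and Nkx2-1 of -0.56, with Nkx2-1 at 85.8 to 104 CPM in the low-Sftpc mice and at 104 to 167 CPM in the high-Sftpc mice. Their slopes were 0.75 ± 0.08 and 0.58 ± 0.06 (adjusted p = 8.41e-11 and 8.31e-11).

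The remaining list members without overlap were Cxcl15, Muc1, Egfl6, Napsa, Lpcat1, Dram1, Rab27a, Lrrk2 and Scd1, with differences from -1.46 (Egfl6) to -0.54 (Dram1). Of these, Scd1, a desaturase that makes monounsaturated fatty acids, rose on day 14 against CTRL by 1.00 log2 units (adjusted p = 8.43e-06). It lay at 1538 to 2055 CPM in the low-Sftpc mice and at 2652 to 5206 CPM in the high-Sftpc mice, which were all above the CTRL range of 797 to 1910 CPM. Its slope of 0.42 had an adjusted p of 0.0114, and of 0.293 without day 21. Lrrk2, a kinase of lysosomes, had a slope of 0.06 ± 0.09 (adjusted p = 0.592) although its sets did not overlap. With the mean of the other AT2 genes in place of Sftpc, called the AT2 covariate below, its slope was 0.40 (adjusted p = 0.00872). That mean includes Lrrk2 itself, so part of this slope is built in.

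The 6 AT2 genes whose sets overlapped were Cd74, Cebpa, Ctsh, Fabp5, S100g and Slc39a8. Ctsh, a cathepsin that processes surfactant proteins and is also made by macrophages, went the other way: it measured 609 to 1336 CPM in the low-Sftpc mice and 537 to 629 CPM in the high-Sftpc mice, with a slope of -0.30 ± 0.10 (adjusted p = 0.0102, and 0.145 without day 28). Cd74, the invariant chain of MHC class II that AT2 and immune cells express, lay at 628, 1191, 435, 2109, 985 and 2583 CPM in the low-Sftpc mice and at 1400 to 1965 CPM in the high-Sftpc mice, so that the low-Sftpc set held both the lowest and the highest mice. The counts of S100g are uncertain, since genes on the opposite strand at its locus held 213% of its own count.

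Genes of surfactant lipid synthesis were less uniform than the AT2 markers. Of 21 tested, 5 lay lower without overlap and 0 higher, and 3 of these 5 (Abca3, Lpcat1 and Scd1) are also in the AT2 list. The others were Elovl1, a fatty acid elongase (185 to 314 against 366 to 610 CPM), and Gpam, the first enzyme of glycerolipid synthesis (87 to 126 against 143 to 182 CPM), both named after their values were seen. Fasn, fatty acid synthase and the other of the 4 most abundant members of the list, overlapped at 254 to 564 against 464 to 984 CPM (slope 0.20, adjusted p = 0.212, and 0.0102 with the AT2 covariate). On the other days 11 had a positive slope and 1, Elovl6, a negative one, and without day 21 these were 6 and 0. The sum of the list was 3865 to 5316 CPM in the low-Sftpc mice, near the CTRL range of 3843 to 5467 CPM, and 5959 to 9891 CPM in the high-Sftpc mice. Scd1 alone made 1538 to 2055, 797 to 1910 and 2652 to 5206 CPM of these sums, so they do not stand for the list evenly. Against CTRL, 4 of the 21 genes were higher on day 14 and 6 lower.

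**Figure D3:**
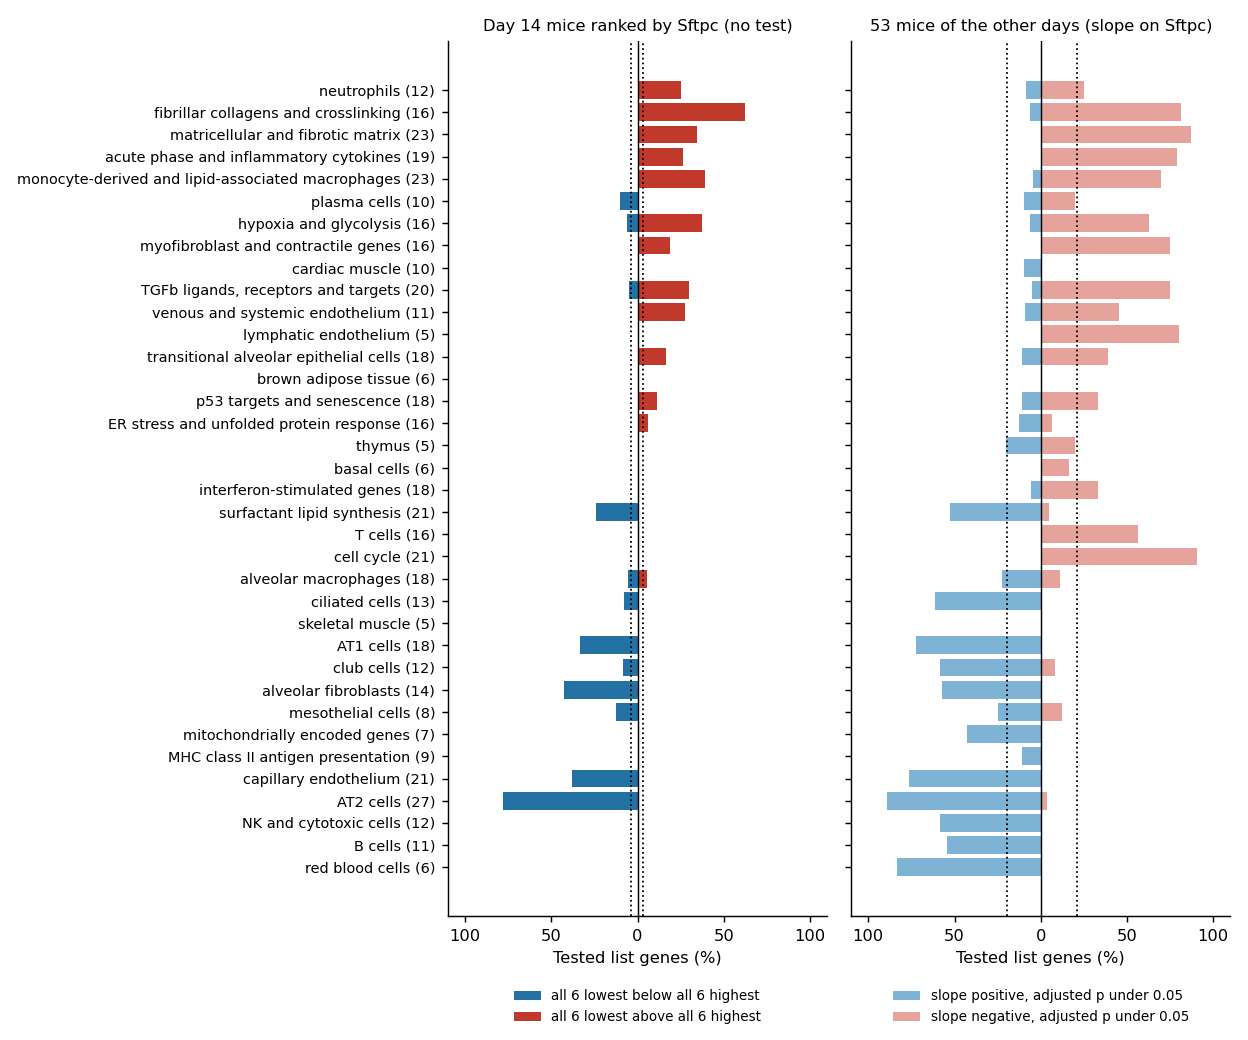
Percent of the tested genes of each list that lay without overlap in the low-Sftpc mice (left, blue lower and red higher than in the high-Sftpc mice), and percent with a slope on Sftpc in the 53 mice of the other days (right, positive and negative), with dotted lines at the share over all genes. The AT2 list has the largest share lower, 21 of 27, and the collagen list the largest share higher, 10 of 16.

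AT1 genes lay lower in part. Of 18 tested, 6 lay lower without overlap and 0 higher, and 13 had a positive slope and 0 a negative one. Cav1, which forms the caveolae of AT1 and endothelial cells, lay at 613, 512, 757, 874, 816 and 512 CPM in the low-Sftpc mice and at 936 to 1103 CPM in the high-Sftpc mice, all below the CTRL range of 1379 to 1680 CPM. Its slope was 0.61 ± 0.09 (adjusted p = 4.23e-07). Ager, the receptor RAGE that is most abundant on AT1 cells, overlapped, at 1223 to 2345 against 1799 to 2306 CPM, and 4 low-Sftpc mice lay below its CTRL range. Clic5, a chloride channel protein, and Emp2, a membrane protein of AT1 cells, overlapped as well, at 515 to 1030 against 986 to 1256 CPM and at 909 to 1921 against 1393 to 1611 CPM. Their slopes were 0.42 and 0.39 (adjusted p = 8.44e-05 and 0.000105). Vegfa, the endothelial growth factor that AT1 cells supply, lay at 426 to 621 against 624 to 866 CPM (slope 0.35, adjusted p = 0.00106).

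Transitional epithelial genes stood on the opposite side in part. Of 18 tested, 3 lay higher without overlap and 0 lower, and 15 had a higher and 3 a lower mean in the low-Sftpc set. On the other days 7 had a negative slope and 2 a positive one. Against CTRL, 16 of the 18 were higher on day 14 (background 32.4% higher and 29.9% lower over all genes), and all 6 high-Sftpc mice were already above the CTRL range in 13. The 3 genes without overlap were Cldn4, Sfn and Cdkn1a, the first pair named after their values were seen. Cldn4, a tight junction claudin, lay at 70.4, 98.2, 102, 49, 76 and 79 CPM in the low-Sftpc mice, at 26 to 41 CPM in the high-Sftpc mice and at 4.05 to 7.64 CPM in CTRL, with a slope of -1.06 ± 0.21 (adjusted p = 4.5e-05). Cdkn1a, the p53 target p21 that stops the cell cycle, lay at 250 to 566, 200 to 232 and 22.6 to 49.3 CPM in that order. Krt8, the keratin that names the transitional state and chosen after its values were seen, overlapped, at 205 to 297 and 179 to 240 CPM, and its slope was -0.03 ± 0.10 (adjusted p = 0.835). The abundant members Krt7, Lgals3 and Clu overlapped too, at 494 to 886 against 531 to 703 CPM, 241 to 471 against 186 to 243 CPM and 363 to 518 against 331 to 544 CPM. Their slopes were 0.10, -0.07 and -0.08 (adjusted p = 0.337, 0.62 and 0.576).

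Airway epithelial genes largely lay below CTRL in both sets, and their order by Sftpc was looser. Of 12 club cell genes, 7 fell against CTRL and 7 had a positive slope, but 1 lay lower without overlap. That gene was Cyp2f2, a cytochrome P450 of club cells named after its values were seen, with 153 to 484 CPM in the low-Sftpc mice, 583 to 1347 CPM in the high-Sftpc mice and 2197 to 3013 CPM in CTRL. Scgb1a1, the club cell secretory protein, overlapped at 1947 to 6475 and 4530 to 14181 CPM. Cbr2, a carbonyl reductase, overlapped at 335 to 737 against 700 to 2145 CPM (slope 1.19, adjusted p = 1.49e-07), and Aldh1a1, which makes retinoic acid, at 469 to 682 against 597 to 1073 CPM (slope 0.65, adjusted p = 1.6e-05). Hp, haptoglobin, lay at 590 to 910 against 645 to 1071 CPM (slope 0.04, adjusted p = 0.794). Of 13 ciliated cell genes all 13 had a lower mean in the low-Sftpc set, 1 lay lower without overlap and 8 had a positive slope. That gene was Sec14l3, at 602 to 878 against 1e+03 to 1460 CPM (slope 0.67, adjusted p = 3.49e-07). Tppp3, a microtubule protein of cilia, overlapped at 60.5 to 99.5 against 77.7 to 177 CPM with a slope of 1.17 (adjusted p = 3.95e-11), and so did Tubb4b, a tubulin (slope 0.19, adjusted p = 0.00352, and 0.0545 without day 28) and Foxj1, the regulator of ciliogenesis (slope 0.29, adjusted p = 0.0908). Basal cell genes, led by Trp63, Ngfr, Aqp3 and Krt14, overlapped and summed to at most 7.95 CPM in any of the 12 mice.

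Capillary endothelial genes moved with the AT2 genes. Of 21 tested, 8 lay lower without overlap and 0 higher, with a median difference of -0.62. On the other days 16 had a positive slope and 0 a negative one, with 11 to 16 positive under the alternative fits. Aplnr, the apelin receptor of general capillary cells, lay at 6.86, 18.4, 9.07, 30.5, 14 and 33.1 CPM in the low-Sftpc mice and at 36.1 to 69.7 CPM in the high-Sftpc mice, but its slope of 0.52 (adjusted p = 0.00632) had an adjusted p of 0.218 without day 28. Kdr, the main VEGF receptor and named after its values were seen, lay at 163 to 312 against 354 to 513 CPM, with a slope of 0.51 ± 0.13 (adjusted p = 0.000844). Pecam1, the pan-endothelial CD31, lay at 477 to 650 against 655 to 882 CPM, a narrower difference of -0.48 (slope 0.28, adjusted p = 0.000652). Calcrl, the adrenomedullin receptor, did not overlap either, yet its slope was 0.14 (adjusted p = 0.234). Ptprb, the endothelial phosphatase VE-PTP, overlapped at 440 to 1117 against 832 to 975 CPM (slope 0.12, adjusted p = 0.379). Cdh5, VE-cadherin, overlapped at 449 to 713 against 672 to 1044 CPM, with a slope of 0.25 (adjusted p = 0.0281, and 0.271 without day 28).

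Venous and systemic endothelial genes went the other way, with 3 of 11 higher without overlap and 0 lower. They were Ackr1, a chemokine scavenger of venules (6.09 to 14.1 against 1.64 to 4.90 CPM, and at most 0.395 CPM in CTRL), Selp, the leukocyte adhesion molecule P-selectin (14.7 to 39.1 against 9.32 to 12.1 CPM) and Col15a1, a basement membrane collagen of systemic vessels (102 to 158 against 60.3 to 88.5 CPM), all named after their values were seen. Their slopes were -1.76, -1.16 and -1.15 (adjusted p = 3.89e-08, 4.62e-08 and 2.62e-10). Vwf, the clotting factor carrier of larger vessels, overlapped, at 800 to 1631 and 751 to 1040 CPM, with a slope of -0.50 (adjusted p = 2.5e-06). The abundant members Slc6a2, Vcam1 and Prss23 overlapped as well, with slopes of 0.06, 0.01 and 0.18 (adjusted p = 0.718, 0.928 and 0.162).

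Resident alveolar fibroblast genes lay with the capillary genes, 6 of 14 lower without overlap and 0 higher. Inmt, a methyltransferase of lung fibroblasts, lay at 186 to 385 CPM in the low-Sftpc mice, 498 to 738 CPM in the high-Sftpc mice and 1552 to 2425 CPM in CTRL, with a slope of 1.32 ± 0.17 (adjusted p = 2.37e-08). Npnt, an integrin ligand of the alveolar wall, lay at 433 to 728 against 789 to 1056 CPM. Tcf21, a transcription factor of lipofibroblasts, lay at 25.9 to 63.9 against 66 to 91.6 CPM, and like Inmt it was named after its values were seen. The most abundant members besides Npnt overlapped: Macf1, a cytoskeletal linker, lay at 770 to 1801 against 1092 to 1411 CPM (slope -0.05, adjusted p = 0.681), Mfap4, a protein of elastic fibres, at 309 to 986 against 867 to 1120 CPM (slope 0.10, adjusted p = 0.521), and Limch1, an actin regulator, at 557 to 1094 against 785 to 964 CPM (slope 0.25, adjusted p = 0.00603, and 0.194 without day 21). Of the 14 genes, 8 had a positive slope and 0 a negative one.

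Fibrillar collagens lay higher in the low-Sftpc mice, although both sets were far above CTRL. Of 16 collagen and crosslinking genes, 10 lay higher without overlap and 0 lower, with a median difference of 0.82. Col1a1, the main chain of type I collagen, lay at 4465, 4163, 2860, 2071, 3632 and 3266 CPM in the low-Sftpc mice, at 1751, 1869, 1699, 1411, 1444 and 1030 CPM in the high-Sftpc mice and at 233 to 443 CPM in CTRL. The highest high-Sftpc mouse thus stood above CTRL and below every low-Sftpc mouse. Its log2 fold change on day 14 was 2.90 ± 0.33 (adjusted p = 2.36e-11) and its slope on the other days -1.37 ± 0.15 (adjusted p = 4.28e-10). Col3a1, of type III collagen, had a smaller difference of 0.57, at 3643 to 5252 against 2155 to 3299 CPM (slope -0.69 ± 0.11, adjusted p = 5.79e-07). Col1a2, the second chain of type I collagen, lay at 2988 to 5278 against 1615 to 2799 CPM (slope -1.10, adjusted p = 3.47e-10), and Col5a2, of type V collagen, at 872 to 1511 against 429 to 853 CPM (slope -1.16, adjusted p = 1.1e-09). In the list 13 genes had a negative slope and 1, the prolyl hydroxylase P4ha1, a positive one, whose adjusted p of 0.0256 became 0.299 without day 28.

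Matricellular proteins had the same order. Of 23 tested, 8 lay higher without overlap and 0 lower, and 20 had a negative slope, with a median slope of -1.07 beside 0.01 over all genes. Spp1, osteopontin, which fibroblasts and scar macrophages secrete, lay at 6791, 4737, 7806, 3667, 6487 and 3083 CPM in the low-Sftpc mice, at 826 to 2255 CPM in the high-Sftpc mice and at 27 to 122 CPM in CTRL. Its slope of -1.07 ± 0.31 had an adjusted p of 0.00407, but of 0.0847 without day 21. With the AT2 covariate in place of Sftpc the adjusted p was 0.170. Timp1, an inhibitor of matrix metalloproteinases, lay at 162 to 296, 42.5 to 91 and 3.78 to 6.52 CPM in that order, with a slope of -1.72 ± 0.23 (adjusted p = 3.79e-08). Tnc, tenascin C, lay at 382 to 970 against 175 to 378 CPM. Timp1 and Tnc were named after their values were seen. Among the most abundant members, Sparc, a collagen-binding glycoprotein, overlapped at 4267 to 5702 against 3615 to 4507 CPM (slope -0.22, adjusted p = 0.0163, and 0.201 without day 21), and Thbs1, thrombospondin, at 861 to 3344 against 538 to 901 CPM (slope -0.90, adjusted p = 2.36e-06). Fn1, fibronectin, touched across the sets, at 4500 to 10834 against 1944 to 4731 CPM, although its slope was -1.53 ± 0.16 (adjusted p = 6.4e-11).

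Contractile and TGFβ genes shifted less than the matrix itself. Of 16 myofibroblast genes, 3 lay higher without overlap (Des, Tpm1 and Fap), and Acta2, smooth muscle actin, overlapped at 287 to 599 and 229 to 300 CPM with a slope of -0.59 (adjusted p = 3.84e-07), the latter, Des and Fap being named after their values were seen. Of the most abundant, Tpm1, a tropomyosin, lay at 587 to 753 against 504 to 558 CPM (slope -0.20, adjusted p = 0.000722), while Actn1, Cald1 and Tagln overlapped with slopes of -0.56, -0.53 and -0.40 (adjusted p = 9.8e-09, 4.93e-12 and 0.000688, the last 0.0969 without day 21). In this list 12 slopes were negative, and 7 without day 21. Of 20 ligands, receptors and targets of TGFβ, 6 lay higher without overlap and 1 lower, and 15 had a negative slope. Among ligands, Tgfb1 lay at 109 to 132 against 90.2 to 107 CPM (slope -0.27, adjusted p = 0.000293), and Inhba, the activin A subunit, at 35.6 to 97.8 against 7.38 to 19.5 CPM (slope -2.27, adjusted p = 3.13e-13). The gene that lay lower was Bambi, a decoy receptor that dampens TGFβ signals (7.65 to 12.2 against 13.1 to 17.1 CPM), named like Tgfb1 and Inhba after its values were seen. The most abundant members of the list overlapped. Tgfbr2, the type II receptor, lay at 671 to 1065 against 621 to 746 CPM (slope -0.32, adjusted p = 5.06e-08), and Ccn2, the connective tissue growth factor, at 474 to 1673 against 309 to 531 CPM (slope -0.70, adjusted p = 2.31e-06). Ccn1 lay at 207 to 607 against 198 to 339 CPM (slope -0.48, adjusted p = 0.0106, and 0.0963 without day 21), and Ltbp3, a binding protein of latent TGFβ, at 266 to 318 against 297 to 387 CPM (slope -0.02, adjusted p = 0.855), with 28.4% of its count on opposite-strand genes.

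**Figure D4:**
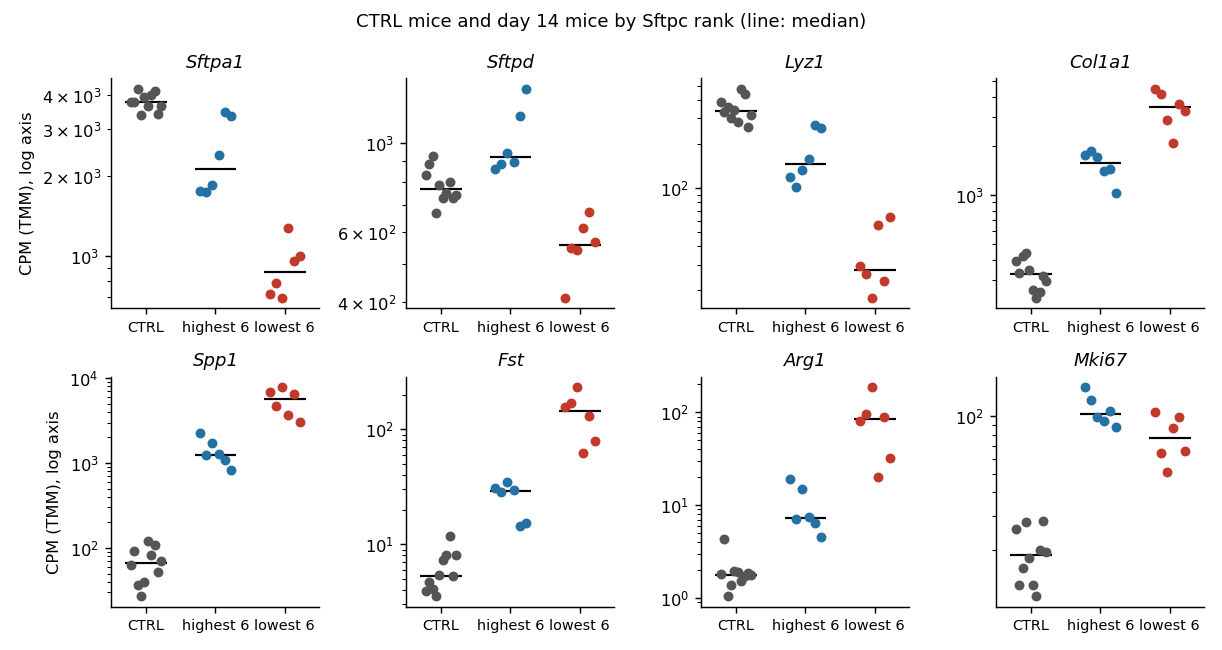
CPM on a log axis (vertical) of 8 genes in CTRL, the high-Sftpc mice and the low-Sftpc mice (horizontal), with a point for each mouse and a line at each median. Sftpa1, Sftpd and Lyz1 step down from the high-Sftpc to the low-Sftpc set, Col1a1, Spp1, Fst and Arg1 step up, and Mki67 is raised in both sets with overlapping points.

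Among genes without overlap and with a mean log2 CPM above 1, the highest difference was that of Cd177, and Arg1 and Fst were among the 10 highest. Cd177, a neutrophil surface antigen (chr7:24743983-24760311), lay at 459, 218, 125, 70.2, 54.3 and 63.2 CPM in the low-Sftpc mice and at 29.6, 9.94, 17.5, 15.5, 13 and 10.3 CPM in the high-Sftpc mice, a difference of 3.00. It was highest in the mouse with the least Sftpc, replicate 1, and its slope was -1.28 ± 0.17 (adjusted p = 4.19e-08). Of the abundant neutrophil genes, Ltf was also highest in that mouse, whereas S100a8, S100a9 and Csf3r were highest in replicate 8. Which cells carried the Cd177 RNA was not tested. Arg1, the arginase of alternatively activated macrophages (chr10:24915221-24927484), lay at 81.2, 94.9, 186, 19.9, 89.1 and 32.5 CPM against 19, 7.07, 14.8, 7.41, 6.42 and 4.59 CPM, with 1.04 to 4.29 CPM in CTRL. The lowest low-Sftpc mouse, replicate 7, stood just above the highest high-Sftpc mouse. The slope of Arg1 was -2.14 ± 0.30 (adjusted p = 1.22e-07). Fst, follistatin, which binds and blocks activins (chr13:114452290-114458951), lay at 155, 168, 232, 62, 130 and 79.1 CPM against 30.7, 28.7, 34.5, 29.8, 14.5 and 15.3 CPM, with a slope of -2.20 ± 0.23 (adjusted p = 6.76e-11).

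The other 7 of the 10 highest differences were Acsl6, Gpr37, Mmp10, Ereg, Saa3, Mt2 and Cxcl13. Mt2, a metallothionein that binds zinc and copper, lay at 311, 313, 931, 121, 191 and 123 CPM in the low-Sftpc mice, at 36.5 to 58.6 CPM in the high-Sftpc mice and at 8.41 to 13 CPM in CTRL. Ereg, the epidermal growth factor ligand epiregulin, lay at 56.6, 16.1, 77.7, 10.4, 12.5 and 9.48 CPM against 1.72 to 5.18 CPM. Saa3, an acute phase protein, lay at 66.3 to 125 against 8.25 to 34.4 CPM. Replicate 8 had the most Mt2, Ereg, Arg1 and Fst of all 12 mice. Mmp10, a stromelysin, lay at 2.08 to 13.5 against 0.410 to 1.2 CPM and was at most 0.0988 CPM in CTRL, where a fold change would rest on few counts. All 7 had a negative slope, with the weakest for the B cell chemokine Cxcl13 (-0.74, adjusted p = 0.0212, and 0.153 without day 21).

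Macrophage genes of the monocyte-derived and lipid-associated kind lay higher in the low-Sftpc mice, 9 of 23 without overlap and 0 lower. Apoe, the lipid carrier, lay at 3948, 6463, 3251, 2199, 2644 and 4052 CPM against 1220 to 1931 CPM, with 506 to 673 CPM in CTRL. Its slope was -0.53 ± 0.14 (adjusted p = 0.00208, and 0.204 without day 28). C1qa, a chain of complement C1q named after its values were seen, lay at 255 to 512 against 135 to 211 CPM (slope -0.76 ± 0.15, adjusted p = 4.87e-05). The lysosomal proteases Ctsd and Ctsb overlapped, at 873 to 1351 against 993 to 1185 CPM (slope -0.03, adjusted p = 0.907) and at 1506 to 2205 against 1131 to 1573 CPM (slope -0.29, adjusted p = 0.0317, and 0.126 without day 21). In this list 16 slopes were negative and 1 positive, and the negative ones were 10 without day 21. Alveolar macrophage genes did not share this order, with 1 of 18 lower, 1 higher, 4 positive slopes and 2 negative ones. Its most abundant members overlapped: Chil3, a chitinase-like protein, at 364 to 1589 against 340 to 709 CPM (slope -0.48, adjusted p = 0.0583, and 0.0411 without day 21), Mrc1, the mannose receptor, at 189 to 480 against 140 to 192 CPM (slope -0.68, adjusted p = 7.66e-07), Ctsk (slope -0.29, adjusted p = 0.283) and Itgax (slope -0.29, adjusted p = 0.0824, and 0.0336 without the 2 mice farthest from their day mean).

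Neutrophil and cytokine genes mostly had higher means in the low-Sftpc set, but few neutrophil slopes were negative. All 12 neutrophil genes tested had a higher mean there, and 3 were higher without overlap (Retnlg, Mmp8 and Il1r2, named after their values were seen). On the other days 3 had a negative slope, 1 a positive one and 8 neither at the threshold. Over all genes 3.44% were higher without overlap and 21.2% had a negative slope. The neutrophil sum ran from 125 to 721 CPM in the low-Sftpc mice and from 90.7 to 180 CPM in the high-Sftpc mice. The most abundant of these genes overlapped: S100a8 and S100a9, the calprotectin subunits, lay at 11.9 to 159 against 8.04 to 16.4 CPM and at 14.8 to 200 against 9.35 to 21.5 CPM, with slopes of 0.11 and 0.14 (adjusted p = 0.642 and 0.579), and Csf3r and Ltf had slopes of -0.09 and -0.38 (adjusted p = 0.571 and 0.505). Of 19 acute phase and cytokine genes, 5 lay higher without overlap (Saa3, Ccl2, Ccl7, Il11 and Socs3) and 15 had a negative slope, 10 without day 21. Ccl2, the main monocyte attractant and named like Ccl7 and Il11 after its values were seen, lay at 11.3 to 36.5 against 2.83 to 7.51 CPM, with a slope of -1.96 ± 0.24 (adjusted p = 4.06e-09). Socs3, a feedback inhibitor of cytokine signals, lay at 173 to 309 against 107 to 173 CPM (slope -0.83, adjusted p = 1.05e-06). Lcn2, lipocalin 2, overlapped with a lower mean in the low-Sftpc set, at 170 to 436 against 415 to 554 CPM (slope 0.19, adjusted p = 0.399, and 0.01 with the AT2 covariate), and C3, complement component 3, overlapped at 1094 to 1563 against 1046 to 1356 CPM (slope -0.37, adjusted p = 0.00174, and 0.0575 without day 21).

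Lymphoid genes varied widely inside the low-Sftpc set. MHC class II genes summed to 1394, 2762, 936, 4647, 2010 and 5987 CPM in the low-Sftpc mice and to 2937 to 4180 CPM in the high-Sftpc mice, with 0 of 9 genes separated. T cell genes summed to 53, 91, 31.7, 142, 46 and 201 CPM in the low-Sftpc mice and to 62.6 to 106 CPM in the high-Sftpc mice. In both lists replicates 7 and 2 were the 2 highest of the 12 mice and replicates 1, 8 and 4 the 3 lowest. B cell genes ran from 70.8 to 546 CPM against 152 to 363 CPM, and cytotoxic cell genes from 10.2 to 61 CPM against 25.7 to 59.9 CPM. On the other days 9 of 16 T cell genes had a negative slope, while 6 of 11 B cell genes and 7 of 12 cytotoxic genes had a positive one, but with the AT2 covariate these positive counts were 1 and 4. Abundant members of the lymphoid lists overlapped: H2-Aa, H2-Ab1 and H2-Eb1 beside Cd74, Cd4, Trac, Trbc2 and Lat of T cells, Ighm, Ighd and Cd79b of B cells, and Ccl5, Gzma, Klrd1 and Nkg7 of cytotoxic cells. Of these, Gzma, the protease granzyme A, had the largest slope, 0.97 (adjusted p = 1.49e-06), at 0.504 to 8.6 against 4.41 to 10.5 CPM. Interferon-stimulated genes (18 tested) had 0 members separated and 6 negative slopes, and of the 10 plasma cell genes Prdm1, named after its values were seen, lay lower. Ifit3, Oasl2, Gbp2 and Bst2 led the first list and Igha, Sdc1, Xbp1 and Jchain the second, all with overlap. Igha, the heavy chain of IgA, lay at 92.2 to 1318 against 57.1 to 335 CPM (slope -1.42, adjusted p = 0.00391, and 0.181 without day 28).

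Proliferation genes were raised on day 14 in both sets. All 21 cell cycle genes were above CTRL on day 14, and 0 separated the sets. Mki67, the proliferation marker, lay at 105, 64.2, 51, 87.1, 99.5 and 66.1 CPM in the low-Sftpc mice, at 142, 122, 98.7, 95, 106 and 87.5 CPM in the high-Sftpc mice and at 11.4 to 28.3 CPM in CTRL. Of the 21 genes 18 had a lower mean in the low-Sftpc set, with a median difference of -0.15. On the other days 19 of the 21 had a negative slope, Mki67 among them (-0.72 ± 0.15, adjusted p = 0.000113). That count fell to 4 without day 21 and to 4 with the AT2 covariate, where the adjusted p of Mki67 was 0.105. Top2a, the topoisomerase of dividing cells, lay at 39.6 to 83.7 against 74.9 to 115 CPM (slope -0.65, adjusted p = 0.000601, and 0.162 with the AT2 covariate), Mcm3 at 30.5 to 57.2 against 45.7 to 55.2 CPM (slope -0.26, adjusted p = 0.00379, and 0.324 without day 21) and Pcna at 61.4 to 81.5 against 63.4 to 80.5 CPM (slope -0.12, adjusted p = 0.0774, and 0.0357 without day 7).

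Stress programmes separated the sets little outside glycolysis. Of 16 hypoxia and glycolysis genes, 6 lay higher without overlap and Vegfa lower, with 10 negative slopes, and 5 without day 21. Pkm, the pyruvate kinase gene, lay at 490 to 762 against 383 to 434 CPM, with 286 to 343 CPM in CTRL and a slope of -0.39 ± 0.06 (adjusted p = 2.09e-06). Ldha, lactate dehydrogenase A, lay at 385 to 464 against 288 to 354 CPM (slope -0.23, adjusted p = 0.00915, and 0.113 without day 21). Aldoa, the glycolytic aldolase, lay at 486 to 595 against 407 to 484 CPM, and its slope was -0.09 (adjusted p = 0.224). Of 18 genes of p53 and senescence 2 lay higher, Cdkn1a and Mdm2, the ligase that degrades p53 (100 to 152 against 87.5 to 98.6 CPM). Of 16 genes of endoplasmic reticulum stress, 1 lay higher, the transcription factor Atf4, whose slope was -0.07 (adjusted p = 0.402). Atf4 and Mdm2 were named after their values were seen. The most abundant members of the p53 list besides Cdkn1a, which were Ccng1, Trp53inp1 and Btg2, and those of the endoplasmic reticulum list, which were Hspa5, Hsp90b1, Xbp1 and Pdia6, overlapped.

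Red blood cell genes and the remaining marker lists are given as levels. The 6 red blood cell genes tested summed to 225 to 1018 CPM in the low-Sftpc mice, 775 to 1691 CPM in the high-Sftpc mice and 1097 to 2879 CPM in CTRL, with 5 positive slopes, and 1 with the AT2 covariate. Hbb-bs, an adult beta globin, lay at 105 to 443 against 378 to 818 CPM (slope 0.59, adjusted p = 0.000713, and 0.102 with the AT2 covariate), and Hba-a1, Hba-a2 and Hbb-bt overlapped likewise. All 6 genes had a lower mean in the low-Sftpc set, and the part of blood content in the capillary and other results was not tested. Of 8 mesothelial genes 1, Upk3b, lay lower, where 3.58% of all genes did so. Of 5 lymphatic genes 0 separated and 4 had a negative slope. Msln, mesothelin, overlapped at 116 to 328 against 92.8 to 202 CPM (slope -0.46, adjusted p = 0.0371), as did Gpm6a and Upk1b. Of the lymphatic genes Lyve1, Flt4, Mmrn1 and Reln, the guidance protein Reln had the most negative slope, -0.97 (adjusted p = 2.61e-11), and also overlapped.

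At the same level the lowest differences outside the AT2 list were Slc7a10, Plcd4, Adamts17, Aplnr, Acoxl, Ptgfr and Pla2g4f. Slc7a10, an amino acid transporter listed with the alveolar fibroblast genes, lay at 0.0994, 0.599, 0.756, 4.36, 1.62 and 3.34 CPM in the low-Sftpc mice, at 8.41 to 14.3 CPM in the high-Sftpc mice and at 22 to 34.6 CPM in CTRL, a difference of -2.97. The counts of Slc7a10 and Plcd4 are uncertain, since genes on the opposite strand held 250% and 1164% of theirs. Adamts17, a secreted protease, lay at 1.80 to 8.15 against 8.86 to 29.3 CPM, and all 6 high-Sftpc mice were above the CTRL range of 3.42 to 7.33 CPM. Ptgfr, the receptor of prostaglandin F2α, lay at 1.26 to 6.16 against 7.34 to 14.2 CPM, all below the CTRL range of 26.4 to 40.2 CPM. The slopes of these 7 genes were all positive, from 0.52 (Aplnr) to 1.94 (Slc7a10).

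In the 53 mice of the other days, Sftpc varied around the mean of its day with an SD of 0.40 log2 units, from -1.02 to 0.79. Slopes were named among genes with a mean log2 CPM above 1 in the ranked mice of day 14, not in these 53. The 5 most negative slopes at that level were those of Col11a1, Gpr37, Mmp10, Grem1 and Tnfsf18. Col11a1, a minor fibrillar collagen, had a slope of -3.56 ± 0.47 (adjusted p = 2.02e-08), Gpr37 of -3.19, Mmp10 of -2.98, Grem1, the BMP antagonist gremlin, of -2.85, and Tnfsf18 of -2.85. On day 14 Grem1 lay at 31.4 to 102 CPM in the low-Sftpc mice and at 6.07 to 27 CPM in the high-Sftpc mice without overlap, whereas Col11a1 and Tnfsf18 overlapped. At the same level the 5 most positive slopes were those of Colq (1.96), Slc7a10 (1.94), Cytl1 (1.56), Bex2 (1.55) and Tmem28 (1.53), and of these 5 genes Slc7a10 and Tmem28 separated the day 14 sets. The 2 mice farthest from their day's mean, replicates 3 and 10 of day 21 at -1.02 and -0.98, were left out in 1 alternative, which left 5420 genes with a slope past the threshold in place of 6646.

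**Figure D5:**
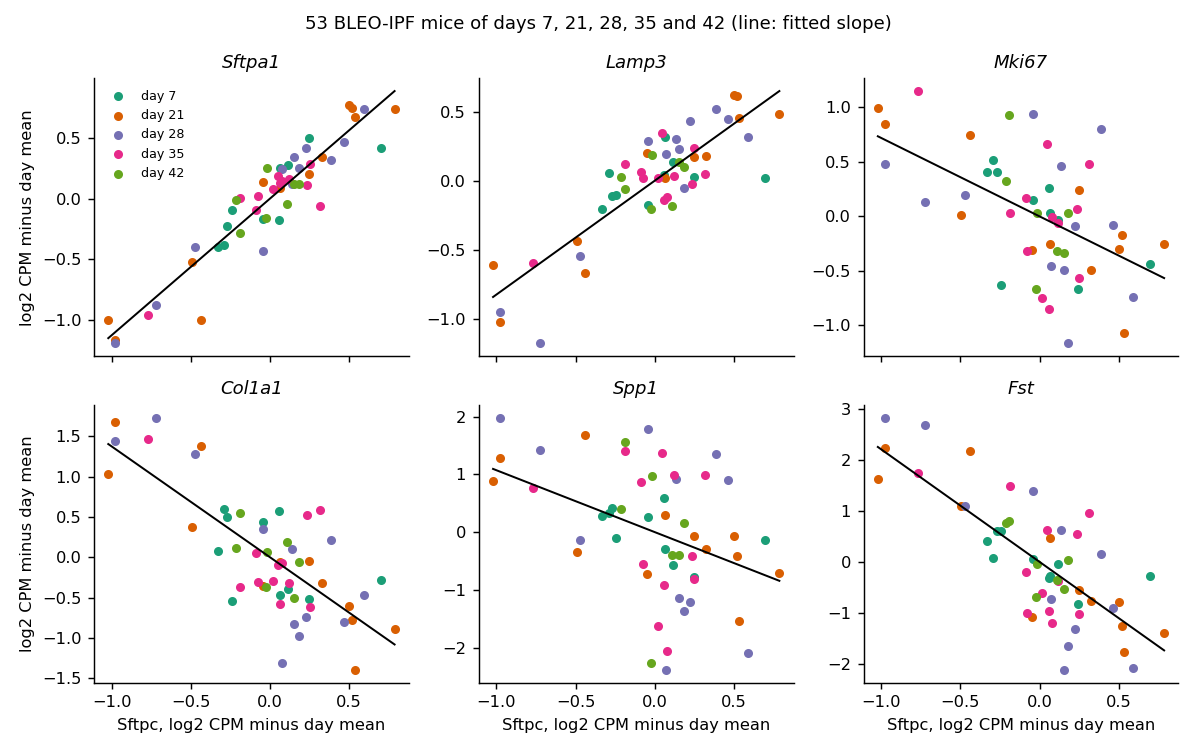
Log2 CPM of 6 genes against log2 CPM of Sftpc, each centred on the mean of its day, in the 53 BLEO-IPF mice of days 7, 21, 28, 35 and 42, with a point for each mouse coloured by day and a line with the fitted slope. Sftpa1 and Lamp3 rise with Sftpc (slopes 1.12 and 0.83), while Mki67, Col1a1, Spp1 and Fst fall (slopes -0.72, -1.37, -1.07 and -2.20).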

How the data were processed

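RNA of the inferior lobe was sequenced in 75 mice. The authors purified polyadenylated RNA, prepared stranded libraries, sequenced single-end reads of 75 bases, aligned them with STAR 2.7.0f to GRCm38 (Ensembl 96), and deposited raw counts per gene without normalization. The counting program and its strand setting are not given in the sources used here, so genes with counted opposite-strand neighbours are uncertain. All 55536 gene identifiers were matched. Groups were taken from the labels. The ranking of the day 14 mice, the genes and the lists were chosen with earlier results of these data known.

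From the counts, log2 CPM (TMM factors, prior count 2) was computed for the 16221 genes kept by filterByExpr with edgeR 4.0.16 in R 4.3.3, and list sums and ranges were made in Python 3.11.15. CPM values in the report are TMM-normalised except those of Sftpc by mouse. Day 14 was compared with CTRL in a fit of all 75 mice. Slopes on Sftpc, centred within day, were fitted in the 53 BLEO-IPF mice of the other days with day as a term. Both used edgeR's quasi-likelihood F test, adjusted by the Benjamini-Hochberg method over all genes at a threshold of 0.05, and SE was derived from the estimate and F. P-values measure the spread between these mice. The low-Sftpc and high-Sftpc sets were described and not tested. Of the genes other than Sftpc, those named were the AT2 list and the 4 most abundant tested members of each other list. Also named were the 10 lowest and the 10 highest differences without overlap, and the 5 most positive and 5 most negative slopes. These differences and slopes were taken among genes with a mean log2 CPM above 1 in the ranked mice of day 14. Some genes that the rule names are not reported here. Genes named beyond this rule are marked where they stand or were chosen after their values were seen. Scripts were tested on simulated data. No 2 libraries of day 14 agreed within sampling noise (lowest chi-square per degree of freedom 7.24 over 66 pairs). Depth limits genes under a few CPM. Alternatives were DESeq2 1.42.0, other scaling and filters, days, mice or replicates left out, other set sizes and rankings, and a replicate block. In a further alternative, the AT2 covariate, the mean of the other AT2 genes replaced Sftpc in the slope fit.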

Additional observations from a re-analysis of the deposited data

Results flagged for a closer look

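Within groups of 6 to 10 mice, 146 sets of values were searched for a mouse far from the rest of its group, and chance flags about 1 in 20 groups. They were list sums and single genes in each set and in CTRL, and Sftpc on days 7 and 42. Days 21, 28 and 35, with 12 mice each, were not searched. In the high-Sftpc set, replicate 5 stood apart in 4 lists: surfactant lipid synthesis summed to 9891 CPM (next mouse 6622), basal cell genes to 7.95 CPM (next 4.53), skeletal muscle genes to 15 CPM (next 7.31), and thymus genes were lowest at 14.8 CPM (next 19.9). Replicate 9 of that set had the highest cell cycle sum, 853 CPM against 730 CPM in the next mouse. In the low-Sftpc set, replicate 8 stood apart in neutrophil genes (721 CPM, next 332) and in p53 and senescence genes (2242 CPM, next 1904), and replicate 2 in plasma cell genes (2253 CPM, next 1231). Among CTRL mice, replicate 2 stood apart in alveolar macrophage genes (1239 CPM, next 981), endoplasmic reticulum stress genes (2743 CPM, next 2484), red blood cell genes (2879 CPM, next 1895) and Arg1 (4.29 CPM, next 1.97), and replicate 9 in thymus genes (77.4 CPM, next 46.2). Sftpc in replicate 3 of day 7 was 18594 CPM, with the next mouse of that day at 13669 CPM.

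Cyp1a1, a cytochrome P450 induced by aryl hydrocarbons, was the 1 gene of 16220 whose slopes on Sftpc differed between the 5 days by a test of the interaction (adjusted p = 0.0389). Its slopes on days 7, 21, 28, 35 and 42 were 0.41, 0.53, 5.12, -2.69 and 3.42.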

How the results depend on the processing

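The counts of 580 lower and 558 higher genes in the low-Sftpc mice were 621 and 513 by total counts, 639 and 496 with upper quartile factors, and 559 and 558 with the sets ranked by the mean of the other AT2 genes and the AT2 genes left out of the count, where the same 6 mice were lowest and the change is the 21 AT2 genes left out. With the lowest 5 against the highest 5 mice they were 939 and 948, and with 4 against 4 they were 1543 and 1415. Leaving out 1 mouse gave 596 to 930 lower and 566 to 968 higher genes, and taking mice out can only add such genes. The 6646 slopes past the threshold (3203 positive, 3443 negative) were 6792 with DESeq2, 6846 with upper quartile factors (3748 positive, 3098 negative), 4462 with the AT2 covariate and the AT2 genes left out of the count, and 4380 without day 21. The cause of the last was not tested beyond the fewer mice. The 10118 genes that differed between day 14 and CTRL ranged from 9677 to 10395, and the log2 fold change of Sftpc from -0.99 to -0.88, past the threshold in every alternative. Direction was followed gene by gene only for a set of the genes named here, and no called result among these turned its direction.

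Replicate numbers are shared between groups. Same-numbered mice of different groups correlated from -0.615 to 0.685 (median 0.02, 204 pairs) and differently numbered ones from -0.727 to 0.689. Equal numbers thus gave no sign of pairing. The check compares pairs and cannot show an effect shared by a run of numbers. In CTRL, Cxcl15 lay at 910 to 1198 CPM in replicates 1 to 6 and at 588 to 762 CPM in replicates 7 to 10. Sftpc overlapped there, at 12126 to 15394 against 12741 to 13777 CPM (TMM). On day 14, replicates 1 to 4 were all in the low-Sftpc set and 9 to 12 all in the high-Sftpc set. An effect of sample order on the sets was not tested. A fit with the replicate block gave 5777 slopes, 10259 genes for day 14 against CTRL, and -0.99 for Sftpc. The depth limits genes under a few CPM.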
